A study of Mus musculus with 6 samples.

Results

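Cldn5, Tmem88, Ly6e, Car4, Tek, Pecam1, Sox7 and Flt1 are 8 genes of endothelial junctions, capillaries and cell identity among the 11138 named genes on the arrays. They were read from every spot whose gene symbol was one of the 8, which gave 18 spots, and the spots of a gene were averaged on each of the 6 arrays. The 8 were chosen by their log ratios on these arrays, since Cldn5, Tmem88 and Ly6e were negative throughout in an earlier reading of the data and the receptors and adhesion genes were not. Their log ratios at 6 weeks, at 1 week and averaged over both are therefore given as a description, with no test.

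The arrays compared RNA of endothelial cells sorted from mice that had been exposed to tobacco smoke with RNA of cells sorted from control mice. Mice with 6 weeks of smoke were compared with 1-week controls on 2 arrays, the second of them a dye reversal of the first, and with 6-week controls on 1 array. On the 2 arrays against 1-week control, an effect of smoke cannot be told apart from one of the differing time of the control. These arrays enter every 6-week mean and fold, every mean over both times and every difference between the times. Mice with 1 week of smoke were compared with controls of unstated age on 3 arrays, 1 of them a dye reversal. The labels do not say if that dye reversal repeats the RNA of another 1-week array, in which case the 1-week group would hold 2 replicates and not 3. All groups share the endothelial sort. The labels used here do not give the tissue, the strain, the animals' age, the markers of the sort or the dose of smoke. They also do not say whether the arrays hold separate animals, so p-values measure only the spread between arrays. Each value is a log2 ratio of 2 RNA samples and not a level, so the purity of the sort could not be checked from its markers.

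Endothelial cells line the blood vessels and hold the barrier between blood and tissue. Claudin-5 (Cldn5) seals the tight junction strands between neighbouring endothelial cells, and PECAM-1 (Pecam1, CD31) holds adjacent cells together at their borders. Carbonic anhydrase 4 (Car4) sits by a lipid anchor on the luminal face of capillaries, where it interconverts carbon dioxide and bicarbonate, and Ly6e is a lipid-anchored surface protein of the Ly6 family. Tie2 (Tek) is the receptor of the angiopoietins and Flt1 a receptor of vascular endothelial growth factor. Sox7 is a transcription factor of the SoxF group that acts in vessel development. Tmem88 is a membrane protein that binds Dishevelled and dampens Wnt signalling, as shown in human and Xenopus cells.

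The numerator of the ratios is not stated. Every title names smoke first and smoke is channel 1 on all 6 arrays, so a negative log2 ratio is read here as likely lower after smoke. Nor is it stated if the authors had already turned the signs of the 2 arrays with reversed dyes, so all arrays were kept as deposited, with the other signs given as alternatives. Paired spots of named genes correlated at r = 0.209 to r = 0.420 within an array, and the standard deviation of named genes was 0.455 to 0.611 per array. Between arrays, r across genes ran from -0.0482 to 0.272, where genes are not independent replicates. It was highest for the 2 dye-reversed arrays, which are of different exposure times. It was 0.148 for the 2 unreversed 1-week arrays, and 0.0719 and 0.103 for the 1-week dye reversal with each of them. For the 6-week array and its dye reversal it was -0.0302. The cause of these likenesses was not tested. With the signs not stated, an effect of smoke and one of the dyes cannot be told apart. A gene is said to have agreeing spots where all its spots lay within 1 log2 unit of each other on each array, which held for 5625 named genes and for 5 of the 8 genes described here (Cldn5, Tmem88, Ly6e, Tek and Flt1).

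The RefSeq promoter table of build GRCm38.p6 held a window for 4 of the 8 genes (Cldn5, Car4, Tek and Flt1). Those of Cldn5 and Tek are shown because both genes had agreeing spots and kept opposite signs on all 6 arrays as deposited. Each is the 250 bases before the gene's start, 5′ to 3′ on the gene's strand, from chr16:18776597-18776846 on the plus strand for Cldn5 and chr4:94739039-94739288 on the plus strand for Tek. Capitals mark matches to 4 short motifs searched on both strands over the 250 bases before and the 50 bases after the start, a match on the opposite strand being shown as the reverse complement.
Cldn5 promoter: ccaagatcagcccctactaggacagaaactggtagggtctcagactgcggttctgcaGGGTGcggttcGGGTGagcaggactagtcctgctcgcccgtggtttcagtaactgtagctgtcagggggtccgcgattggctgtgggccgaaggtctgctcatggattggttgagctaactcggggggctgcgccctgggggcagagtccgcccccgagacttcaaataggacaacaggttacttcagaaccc
Tek promoter: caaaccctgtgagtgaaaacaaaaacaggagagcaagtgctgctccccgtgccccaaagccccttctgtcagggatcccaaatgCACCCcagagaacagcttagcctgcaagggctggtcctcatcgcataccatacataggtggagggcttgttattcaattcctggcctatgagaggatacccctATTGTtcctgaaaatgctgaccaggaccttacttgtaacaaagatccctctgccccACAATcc
The KLF-type motif GGGTG lay 193 and 182 bases before the start of Cldn5 and 166 bases before that of Tek, and was present in 57.5% of all 32851 windows. The SOX-type motif ACAAT lay 63 and 7 bases before the start of Tek and had 0 matches at Cldn5, against 31% of all windows. The GATA-type motif AGATAA, found in 11.2% of windows, matched once at Tek in the 50 bases after the start, which are not printed. The ETS-type motif CAGGAAG, found in 13.3% of windows, had 0 matches at either gene. These are matches of letters and not binding sites. The windows of Car4 and Flt1 each held 1 match, to GGGTG, at 123 and 96 bases before the start.

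Cldn5 and Tmem88, the tight junction protein and the Dishevelled-binding membrane protein, had the lowest log ratios of the 8 genes when averaged over both times with the signs as deposited. The Cldn5 log2 ratios after 6 weeks were -0.58 and, on the dye reversal, -1.66 against 1-week control, and -0.68 against 6-week control. After 1 week they were -0.64 on the dye reversal, -0.87 and -0.53. All 6 arrays were negative, the times overlapped, and the 6-week dye reversal stood lowest. The mean was -0.90 ± 0.21 after 6 weeks (SE of the fit, 2 replicates) and -0.68 ± 0.18 after 1 week (SD, n = 3). Over both times it was -0.79 ± 0.14 (SE), or 1.73-fold likely lower after smoke. Both spots of Cldn5 were negative on every array, 12 of 12 spot values, and differed by at most 0.52. In bulk RNA, fewer cells of a type and less RNA per cell cannot be told apart, and this holds for every ratio given here.

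Tmem88 had the lowest mean over both times. Its log2 ratios after 6 weeks were -0.98 and, on the dye reversal, -1.41 against 1-week control, and -0.84 against 6-week control. At 1 week the values were -1.28 on the dye reversal, -1.34 and -0.66. The times overlapped, and the least negative array was an unreversed 1-week one. The mean was -1.02 ± 0.25 after 6 weeks (SE) and -1.10 ± 0.38 after 1 week (SD, n = 3), and -1.06 ± 0.16 over both (SE), or 2.08-fold likely lower after smoke. Its 12 spot values were all negative, with paired spots within 0.22 of each other. Ranked by the least negative of its 6 arrays, Tmem88 was rank 1 from the bottom of the 11138 named genes, Cldn5 rank 6 and Ly6e rank 16. Low ranks follow in part from the choice of the 3 genes, which were negative throughout in the earlier reading. These ranks use the deposited signs: over the 4 unreversed arrays alone they were 10 for Tmem88, 22 for Cldn5 and 48 for Ly6e, and with the 6-week dye reversal turned that array is positive for all 3 genes (1.41, 1.66 and 0.96), which ends the ranking.

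Ly6e, the lipid-anchored surface protein, was negative on all arrays by a smaller amount. The log2 ratios after 6 weeks were -0.47 and, on the dye reversal, -0.96 against 1-week control, and -0.68 against 6-week control. The 1-week arrays gave -0.59 on the dye reversal, -0.44 and -0.94. The times overlapped throughout. The mean was -0.69 ± 0.21 after 6 weeks (SE) and -0.66 ± 0.25 after 1 week (SD, n = 3), and -0.68 ± 0.13 over both (SE), 1.6-fold likely lower after smoke. All 12 spot values were negative and differed within a pair by at most 0.36. Of the named genes, 403 (3.62%) were negative on all 6 arrays, and the choice of Cldn5, Tmem88 and Ly6e already used that pattern.

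Car4, the capillary carbonic anhydrase, had negative log ratios at 6 weeks and values around zero at 1 week. The log2 ratios after 6 weeks were -0.90 and, on the dye reversal, -1.06 against 1-week control, and -0.90 against 6-week control. After 1 week they were 0.41 on the dye reversal, -0.25 and 0.00. The 3 arrays of the later time all lay below the 3 of the earlier one. The share of all named genes with such a separation was not counted, so it is not read as particular to Car4. The mean was -0.94 ± 0.23 after 6 weeks (SE), 1.92-fold likely lower after smoke, and 0.05 ± 0.33 after 1 week (SD, n = 3). With the 6-week dye reversal turned the 6-week mean of Car4 was -0.41. The spots of Car4 agreed less well: on the array against 6-week control they stood at -1.62 and -0.18, a difference of 1.45. Of all named genes, 13% were negative on the 3 6-week arrays.

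Tek, the angiopoietin receptor, was positive on all 6 arrays. The log2 ratios after 6 weeks were 0.48 and, on the dye reversal, 0.07 against 1-week control, and 0.37 against 6-week control. The 1-week values were 0.42 on the dye reversal, 0.56 and 0.35. The dye reversal at 6 weeks was the lowest value, and its spots stood at -0.32 and 0.46. The mean was 0.33 ± 0.18 after 6 weeks (SE) and 0.44 ± 0.11 after 1 week (SD, n = 3), and 0.38 ± 0.12 over both (SE), 1.31-fold likely higher after smoke. Across named genes, 361 (3.24%) were positive on all 6 arrays.

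Sox7, the SoxF transcription factor, was also positive on all 6 arrays, with log2 ratios after 6 weeks of 0.86 and, on the dye reversal, 0.33 against 1-week control, and 0.25 against 6-week control. At 1 week they stood at 0.35 on the dye reversal, 0.31 and 0.23. The unreversed 6-week array against 1-week control stood above all others. Sox7 was the only one of the 8 genes with 2 probes of 2 spots each, and these parted at 6 weeks, where one averaged 0.78 and the other 0.06. At 1 week the 2 probes averaged 0.29 and 0.30. The probe that averaged 0.06 at 6 weeks was negative there on the dye reversal (-0.12) and against 6-week control (-0.03). Sox7 was thus positive on all 6 arrays only as the mean of its 4 spots. The mean of all spots was 0.42 ± 0.19 after 6 weeks (SE) and 0.30 ± 0.06 after 1 week (SD, n = 3).

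Pecam1, the adhesion protein CD31, and Flt1, the growth factor receptor, did not keep 1 sign. Pecam1 log2 ratios after 6 weeks were 0.06 and, on the dye reversal, -0.22 against 1-week control, and 0.61 against 6-week control. The 1-week arrays gave 0.72 on the dye reversal, 0.14 and 0.15. Values under 0.2 and values above 0.6 occurred at both times, and the spots of the 6-week dye reversal stood at -0.80 and 0.36. The mean over both times was 0.30 ± 0.17 (SE). Flt1 log2 ratios after 6 weeks were -0.17 and, on the dye reversal, 0.00 against 1-week control, and 0.80 against 6-week control. After 1 week they were 0.10 on the dye reversal, -0.18 and -0.10. Only the array against 6-week control stood away from zero, and both of its spots did so (0.74 and 0.86). The Flt1 mean over both times was 0.15 ± 0.17 (SE), and -0.07 without that array.

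**Figure D1:**
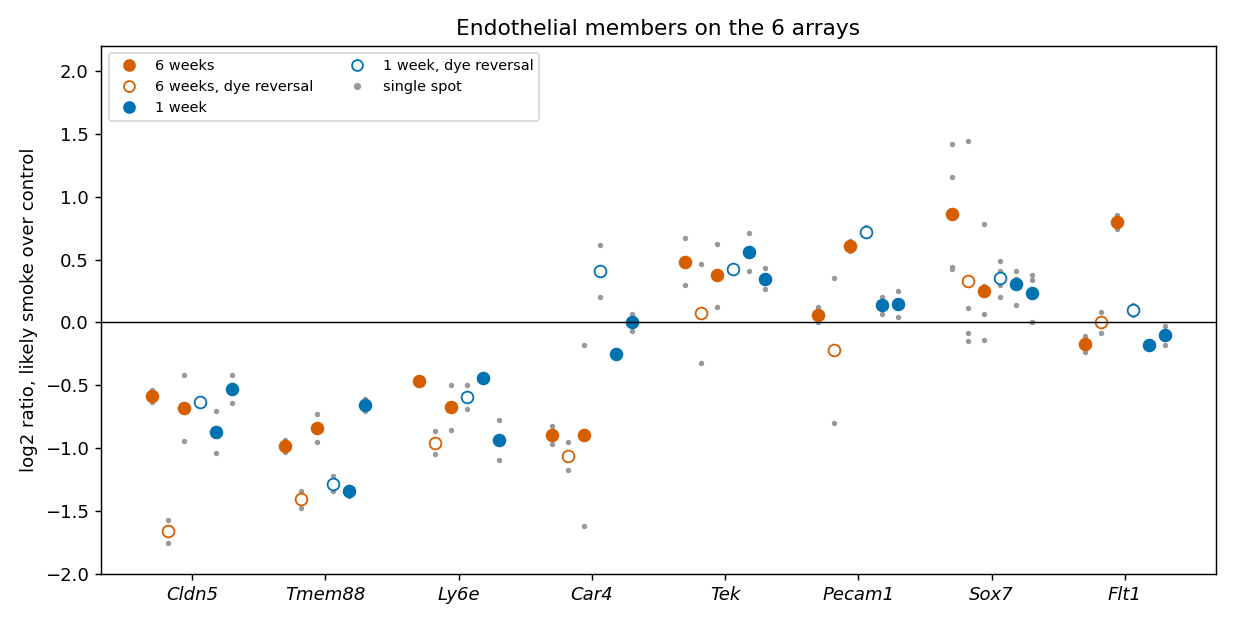
The vertical axis is the log2 ratio (likely smoke over control) and the horizontal axis the 8 genes; large points are array means (orange for 6 weeks, blue for 1 week, open for dye reversal) and small grey points single spots. Cldn5, Tmem88 and Ly6e lie between -1.66 and -0.44 on all 6 arrays, and Car4 reaches -0.90 or lower only on the 6-week arrays. The array means of Tek and Sox7 stay above zero, while some of their single spots lie below it.

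With the signs as deposited, on 6 of 6 arrays the values of Cldn5, Tmem88 and Ly6e all lay below those of Tek, Pecam1, Sox7 and Flt1. With the 6-week dye reversal turned this held on 5 arrays, and with both turned on the 4 unreversed arrays. As deposited, the gap between the highest of the first 3 and the lowest of the other 4 was smallest, 0.27, on an unreversed 1-week array and widest, 0.93, on the array against 6-week control. By the mean over both times the genes ran from Tmem88 (-1.06) through Cldn5 (-0.79), Ly6e (-0.68), Car4 (-0.44), Flt1 (0.15), Pecam1 (0.30) and Sox7 (0.36) to Tek (0.38). Neighbours in this order differed by less than the sum of their SEs, Tmem88 and Cldn5 (0.26 apart) included, except Car4 and Flt1, which were 0.59 apart. Since the genes were chosen for this contrast, the order is a description. The endothelial genes Vwf, Cd34 and Sox17 were not among the named genes and so were not analysed here.

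The difference between 6 weeks and 1 week was tested in the fit of limma, with Benjamini-Hochberg adjustment. That fit held 19242 tests, of 11138 named genes with their spots averaged and 8104 unnamed features, together called all features below. With the signs as deposited, the largest difference of the 8 genes was that of Car4, -0.99 with a 95% interval of -1.73 to -0.26, and it did not pass (adjusted p = 0.951). Flt1 differed by 0.42 (-0.44 to 1.28) and Cldn5 by -0.22 (-0.91 to 0.47). The other 5 differed by at most 0.13 in size, with intervals that reached from -0.95 for Pecam1 to 0.89 for Tmem88, and differences within those bounds could not be resolved. Other signs of the dye-reversed arrays gave other differences. With the 6-week dye reversal turned they were 0.78 for Tmem88, 0.61 for Cldn5, 0.44 for Ly6e, 0.42 for Flt1 and -0.46 for Car4, and at most 0.15 in size for the other 3. With both turned, Pecam1 differed by 0.52, Flt1 by 0.48, Car4 by -0.19 and Cldn5 by 0.19. Car4 was thus not the largest under either, and Cldn5 had the opposite sign under both. Over all features 0 (0%) passed for this difference, the smallest adjusted p was 0.951, and 684 (3.55%) had an unadjusted p under 0.05. With the 6-week or both dye reversals turned, and with robust limma, 0 passed as well.

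**Figure D2:**
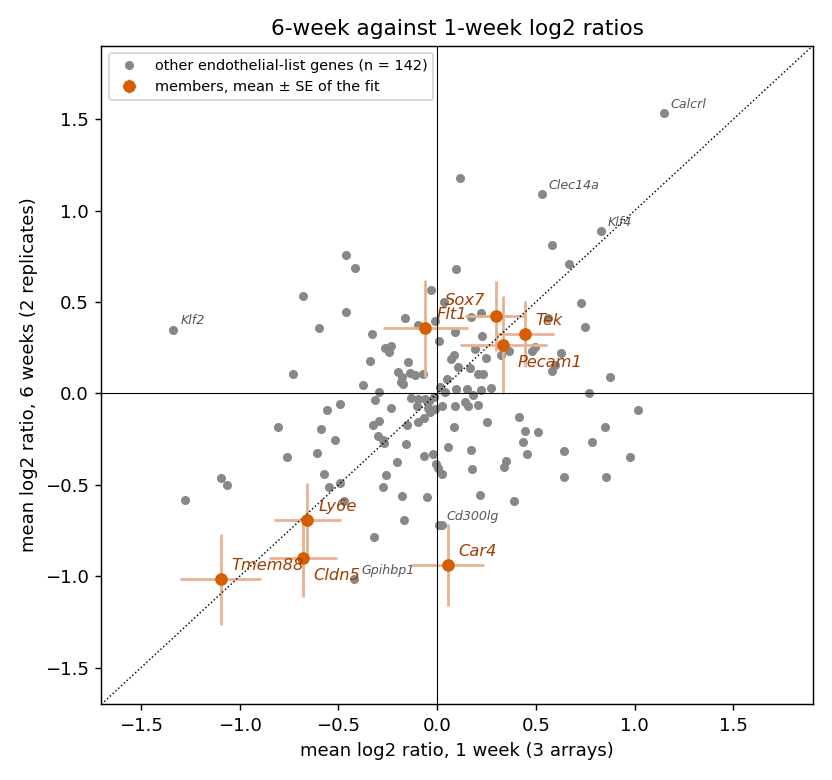
The horizontal axis is the mean log2 ratio at 1 week (3 arrays) and the vertical axis that at 6 weeks (2 replicates); orange points with SE bars are the 8 genes, grey points 142 other genes of the endothelial lists, and the dotted line marks equal values. Cldn5, Tmem88 and Ly6e lie near the line at the lower left, Tek, Pecam1 and Sox7 near it at the upper right, and Car4 lies below it.

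Each mean depends on the sign of the dye-reversed arrays by a different amount. Over the 2 dye-reversed arrays Tmem88 averaged -1.34, Cldn5 -1.15 and Ly6e -0.77, against -0.96, -0.67 and -0.63 over the 4 unreversed arrays. Car4 averaged -0.33 over the reversed and -0.51 over the unreversed arrays, and Tek 0.25 and 0.44. From the 4 unreversed arrays alone, the mean over both times was -0.96 for Tmem88, -0.67 for Cldn5, -0.63 for Ly6e, -0.51 for Car4 and 0.44 for Tek. With the 6-week dye reversal turned, these became -0.70, -0.38, -0.44, -0.18 and 0.37. With both dye reversals turned they became -0.28, -0.16, -0.24, -0.31 and 0.23. With both turned Car4 was the lowest of these genes, and with the 6-week dye reversal alone turned Ly6e lay below Cldn5. The sign of the mean over both times held for each of these 5 genes under all 3 treatments. From the 4 unreversed arrays it could not change for Tmem88, Cldn5, Ly6e and Tek, which kept 1 sign on all 6 arrays as deposited. At 6 weeks alone, the mean with the dye reversal turned was -0.07 for Cldn5 (-0.90 as deposited), -0.31 for Tmem88 (-1.02), -0.22 for Ly6e (-0.69) and -0.41 for Car4 (-0.94). At 1 week alone, Pecam1 averaged -0.15 with both turned, and 0.34 as deposited. Counts of arrays with 1 sign hold for the deposited signs: with the 6-week dye reversal turned, Pecam1 was positive on all 6 arrays and none of the other 7 genes kept 1 sign, and with both turned none of the 8 did.

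**Figure D3:**
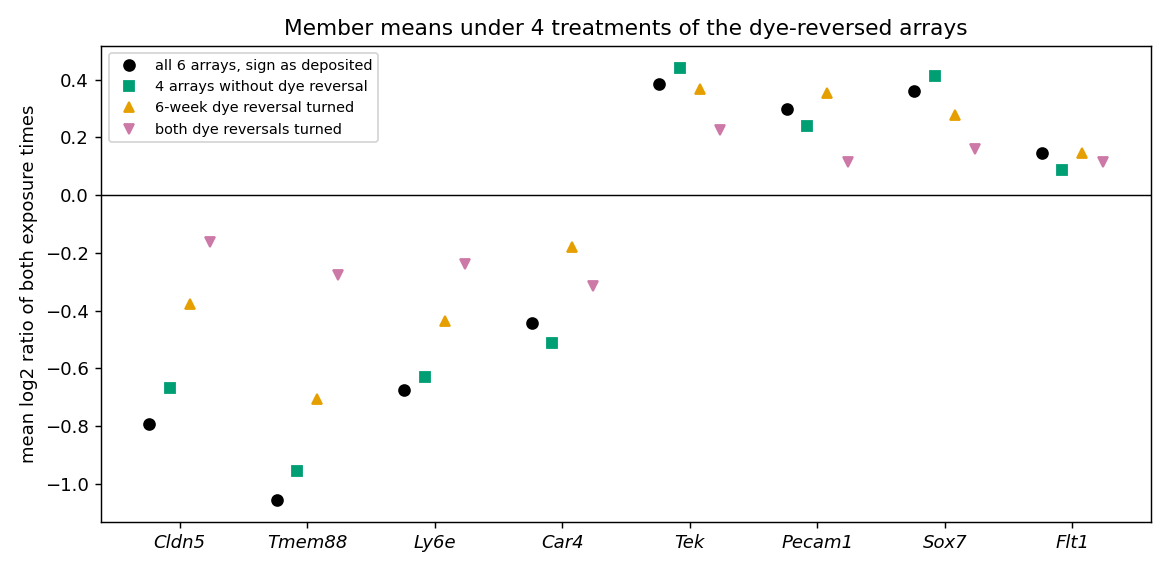
The vertical axis is the mean log2 ratio of both exposure times and the horizontal axis the 8 genes; symbols mark the 4 treatments of the dye-reversed arrays. Cldn5, Tmem88, Ly6e and Car4 stay below zero and Tek, Pecam1, Sox7 and Flt1 above it in all 4, while Cldn5 ranges from -0.79 to -0.16.

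Among the genes with agreeing spots, likeness to each of the 8 was measured as the root mean square difference over the 6 arrays. Nearest to Cldn5 were Raly, an RNA-binding protein (0.29), and Eng, the endothelial co-receptor endoglin (0.33), against a median of 0.97 to all 5624 genes compared. Eng itself had log2 ratios of -0.29, -1.20 and -0.23 after 6 weeks and -0.56, -0.61 and -0.32 after 1 week, with the 6-week dye reversal lowest, as for Cldn5. Its mean over both times was -0.49 ± 0.14 (SE) and did not pass (adjusted p = 0.107 among genes with agreeing spots). Nearest to Tmem88 were Uqcc2, an assembly factor of respiratory complex III (0.34), and Cldn5 (0.39). Ly6e had Crabp1, a retinoic acid carrier (0.19), and 2810025M15Rik (0.23) as its nearest, and Car4 had Pbld1 (0.17) and Acsl3, an acyl-CoA synthetase (0.21). For Tek these were Psma1, a proteasome subunit (0.11), and Dcaf4 (0.12), for Sox7 Pdcd10, the CCM3 protein of cerebral cavernous malformation (0.14), and 9130401M01Rik (0.15), for Pecam1 Tcf23 and Ccndbp1 (0.17 each), and for Flt1 Hsf2bp (0.12) and Gkn1 (0.13).

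The other genes of the same families did not share one sign with Cldn5, Ly6e or Car4. Of 16 other claudins 8 were negative and 8 positive over both times, with a median log2 ratio of 0.01 and a range from -0.30 (Cldn6) to 0.10 (Cldn18). Cldn5 at -0.79 lay below all of them, but it was chosen for its negative log ratios, so this order is a description. Of 16 other Ly6 family genes 8 were negative, with a median of 0.01. Gpihbp1, which carries lipoprotein lipase onto capillaries, was the lowest of these at -0.72 ± 0.28 (SE), just below Ly6e. The log2 ratios of Gpihbp1 were -1.60, -2.14 on the dye reversal and -0.16 after 6 weeks, and -0.04, -0.46 and -0.77 after 1 week, so its mean rests mainly on the arrays against 1-week control. Of 12 other carbonic anhydrases 8 were negative, with a median of -0.19, from -0.46 (Car13) to 0.50 (Car8). Of these, 10 claudins, 8 Ly6 genes and 5 carbonic anhydrases had agreeing spots, and none passed at either time or over both. All named genes had a median of -0.01 over both times, and 51.2% of them were negative.

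Among 29 other junction genes, 15 were negative and 14 positive over both times, and the median log2 ratio was 0.00. None of the 15 with agreeing spots passed. Ctnna1, alpha-catenin of adherens junctions, was positive on all 6 arrays, at 0.55 ± 0.13 (SE; adjusted p = 0.0747). Rasip1, which acts in vessel lumen formation, was the lowest at -0.55 ± 0.14 (adjusted p = 0.0812). Tjp1 (ZO-1), which ties claudins to actin, averaged 0.14 ± 0.16. Cdh5 (VE-cadherin) averaged 0.35 ± 0.29, but its spots differed by up to 8.13 log2 units.

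The capillary and vessel-bed genes ran in both directions. Of 34 besides Car4 and Ly6e, 15 were negative and 19 positive over both times, with a median log2 ratio of 0.05. In the fit of genes with agreeing spots, 103 of 5625 genes (1.83%) passed over both times, 37 negative (0.658%) and 66 positive (1.17%). Genes that passed are said to have risen or fallen after smoke, in the likely direction of the ratio. None of them passed in the fit over all features, and the gene lists were chosen with earlier results of these data known. Of 22 capillary genes in that fit, Fabp5, a fatty acid carrier, fell (-0.93 ± 0.14 SE, adjusted p = 0.0128), as did Sparcl1, a matrix-associated glycoprotein (-0.78 ± 0.17, adjusted p = 0.0399). Cav1, the coat protein of caveolae, rose (0.69 ± 0.12, adjusted p = 0.0269). Cd300lg, a lectin-like receptor of capillary endothelium, had a time pattern like that of Car4. Its log2 ratios were -0.80, -0.74 and -0.67 after 6 weeks and 0.12, -0.24 and 0.16 after 1 week, and its difference between the times, -0.73, did not pass (adjusted p = 0.586 among genes with agreeing spots).

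Among 31 vascular receptors and ligands besides Tek and Flt1, 20 were negative and 11 positive over both times, with a median log2 ratio of -0.06. Calcrl, the receptor for adrenomedullin, had log2 ratios of 1.94, 1.18 on the dye reversal and, against 6-week control, 1.5 after 6 weeks, and 1.20 on the dye reversal, 1.24 and 1.00 after 1 week. All 6 exceeded every array value of the 8 genes. Its mean over both times was 1.34 ± 0.12 (SE), and it rose in each of the 3 contrasts among genes with agreeing spots (adjusted p = 0.00237 over both times, 0.0219 at 6 weeks, 0.00995 at 1 week). At 6 weeks 12 of the 5625 genes (0.213%) passed, and at 1 week 102 (1.81%). Clec14a, an endothelial lectin, rose over both times (0.81 ± 0.14, adjusted p = 0.0195). Nrp1, a co-receptor of vascular endothelial growth factor, was negative on all 6 arrays at -0.53 ± 0.17 (adjusted p = 0.132). Kdr, the main receptor of that factor, averaged -0.31 ± 0.23 and was positive on 2 arrays, and Tie1, the partner of Tie2, averaged 0.05 ± 0.18.

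Of 31 endothelial transcription factors besides Sox7, 16 were negative and 15 positive over both times, with a median log2 ratio of -0.01. Klf4, a factor of quiescent endothelium, rose over both times (0.86 ± 0.12 SE, adjusted p = 0.0124). Klf2, which flow induces, fell at 1 week (-1.34 ± 0.17, adjusted p = 0.00921), and Gata2, a factor of endothelial and blood cells, rose at 1 week (0.87 ± 0.15, adjusted p = 0.0243). Sox18, the SoxF relative of Sox7, was negative on all 6 arrays at -0.27 ± 0.14, the opposite sign to Sox7, and did not pass (adjusted p = 0.403). Of 29 general endothelial genes besides Tmem88 and Pecam1, 16 were negative, with a median of -0.07. Egfl7, a secreted endothelial protein, averaged -0.47 ± 0.13 (adjusted p = 0.111). Around Tmem88, 20 of 29 other Wnt pathway genes were negative, with a median of -0.06, and Fzd4, the receptor of norrin, rose at 1 week (0.93 ± 0.16, adjusted p = 0.0241), a call that was lost without any one of the 3 1-week arrays, without the array against 6-week control, from the 4 unreversed arrays, with both dye reversals turned, and with the 1-week dye reversal averaged with either other 1-week array.

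Over the 5 endothelial lists together, 142 genes besides the 8 were measured, 75 negative and 67 positive over both times, with a median log2 ratio of -0.01. Of these, 11 (7.75%) were negative on all 6 arrays: Ace, Egfl7, Emcn, Eng, Fabp5, Gimap4, Gpihbp1, Igfbp7, Nrp1, Sox18 and Sparcl1. Another 7 (4.93%) were positive on all 6: Calcrl, Cav1, Clec14a, Ctnna1, Klf4, Krit1 and Tm4sf1. Of all named genes, 3.62% were negative and 3.24% positive on all 6 arrays. Of the 87 list genes with agreeing spots, 6 passed over both times (6.9%), 1 at 6 weeks (1.15%) and 7 at 1 week (8.05%: Calcrl, Fabp5, Gata2, Igfbp7, Klf2, Klf4 and Sparcl1). Among all 5625 genes with agreeing spots these shares were 1.83%, 0.213% and 1.81%. Since the lists were chosen with earlier results of these data known, the shares are a description. None of the 6 passed with the 6-week dye reversal turned, with both turned, or without the array against 6-week control, and only Calcrl passed from the 4 unreversed arrays. Without the third 1-week array, only Calcrl and Klf4 of the 6 passed. Of the 7 at 1 week, none passed without the third 1-week array, from the unreversed arrays or with both dye reversals turned, 1 (Klf2) without the second 1-week array, and 3 (Calcrl, Fabp5 and Klf2) without either the 1-week dye reversal or the array against 6-week control. With the 6-week dye reversal turned 5 of the 7 passed, without Klf4 and Sparcl1. With the 1-week dye reversal counted as 1 replicate with the second or the third 1-week array, 4 (Calcrl, Fabp5, Klf2 and Sparcl1) and 3 (the same without Sparcl1) passed. The call of Calcrl at 6 weeks was lost with the 6-week or both dye reversals turned, from the 4 unreversed arrays, without the third 1-week array and without the array against 6-week control.

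Over all 19242 tests, of named genes and unnamed features, 0 (0%) passed in limma at 6 weeks, at 1 week and over both times. The smallest adjusted p-values were 0.556, 0.178 and 0.199. An unadjusted p under 0.05 was reached in 792 (4.12%), 1280 (6.65%) and 1215 (6.31%) tests in the same order. Robust limma also gave 0 in each.

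**Figure D4:**
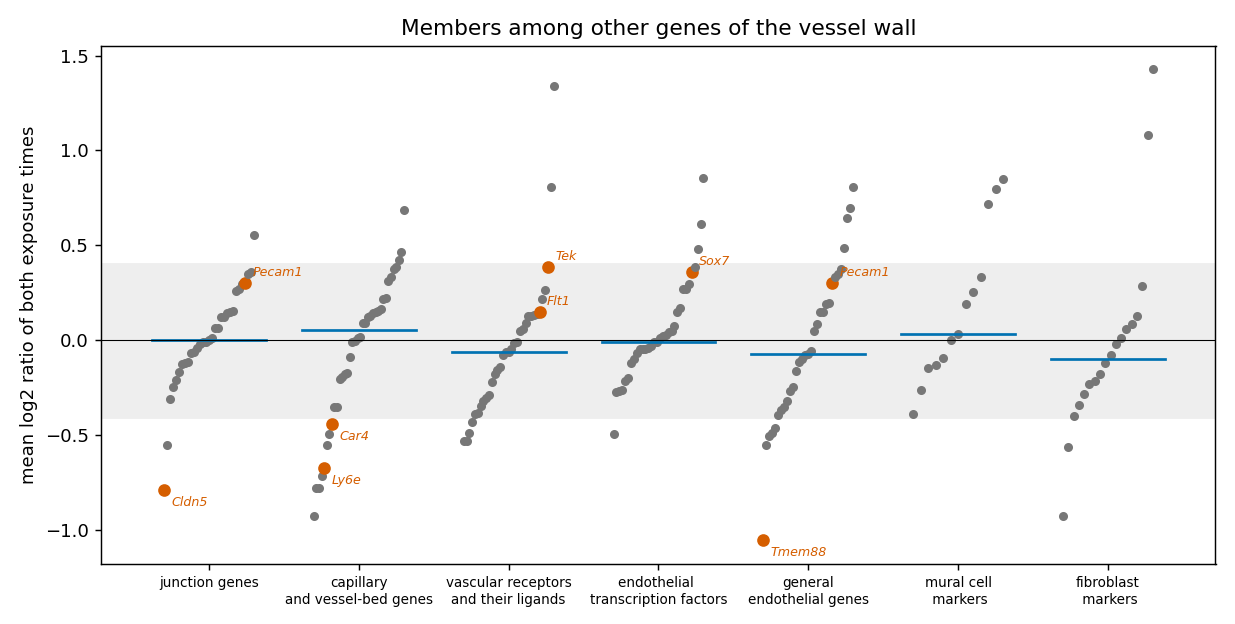
The vertical axis is the mean log2 ratio of both exposure times, for the genes of 7 lists sorted by value; orange points are the 8 genes, blue lines the medians of the other genes of a list, and the grey band the 5th to 95th percentile of 11138 named genes (-0.41 to 0.40). Cldn5 and Tmem88, which were chosen for negative log ratios, lie below every other gene of their lists, while the medians stay between -0.10 and 0.05.

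Some markers of other cell types that a sort could carry over also passed among genes with agreeing spots, and their part in the results above was not tested. Agreeing spots were found for 9 mural cell, 11 fibroblast and 7 adipocyte markers. They were also found for 5 hepatocyte, cardiac and skeletal muscle markers. Of all genes with agreeing spots, 1.83% passed over both times, and 51.2% of all named genes were negative. Of 13 mural cell markers 8 were positive over both times, with a median log2 ratio of 0.03, and Acta2, smooth muscle actin (0.80 ± 0.17 SE, adjusted p = 0.0364), and Kcnj8, a potassium channel of pericytes (0.72 ± 0.16, adjusted p = 0.045), rose. Both had higher means at 6 weeks, 1.14 for Acta2 and 1.07 for Kcnj8, than at 1 week, 0.46 and 0.36, but the differences did not pass. Of 18 fibroblast markers 11 were negative, with a median of -0.10. Aspn (1.08 ± 0.17, adjusted p = 0.0128) and Postn (1.43 ± 0.31, adjusted p = 0.0343), matrix proteins, rose, and Dpt, another, fell (-0.93 ± 0.17, adjusted p = 0.024). Of 20 leukocyte markers 11 were negative, with a median of -0.03, of 16 epithelial markers 11, with a median of -0.06, and of 6 red cell markers 3, with a median of -0.07. None of these 3 lists held a gene that passed. Of 11 adipocyte markers 9 were negative, with a median of -0.16, and Fasn, fatty acid synthase, fell (-0.94 ± 0.13, adjusted p = 0.0094). Of 16 hepatocyte, cardiac and skeletal muscle markers 10 were negative, with a median of -0.06, and Ahsg, a liver plasma protein, rose (1.24 ± 0.14, adjusted p = 0.00355). Like the endothelial calls over both times, these were all lost with the 6-week dye reversal turned and without the array against 6-week control.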

How the data were processed

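The 6 arrays each compared RNA of sorted mouse endothelial cells after smoke, in channel 1, with control RNA in channel 2. The authors' deposited table holds a log2 ratio per array for 32448 features. The log base, centring, direction, scanner, dyes, background correction and normalization are not given in the sources used here. From the values, at least 99.99% are log2 of folds in whole hundredths (within 0.02 of a hundredth), and each column's median is at most 3e-07 in size. No intensities were used, so signal over background is unknown.

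Features were named from a probe table (24344 with 1 gene symbol, 98 with several, 8006 absent). Of these symbols 24076 matched the RefSeq gene table of GRCm38.p6 through Entrez identifiers and 268 were kept, giving 11138 named genes and 8104 unnamed features. Each array was centred on its median and the spots of a gene were averaged. The 6-week array against 1-week control and its dye reversal count as 1 replicate, their mean, which leaves 5 replicates. Limma 3.58.1 (lmFit and eBayes, R 4.3.3) was run with 1 coefficient per exposure time, 3 residual and 2.39 prior degrees of freedom, and Benjamini-Hochberg adjustment over 19242 tests at 0.05, two-sided. Genes with agreeing spots were fitted separately, so their adjusted p-values and the SEs, taken from the fit over all features, belong to different fits. The code was tested on simulated data.

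The genes described, the gene lists and the sign of the arrays were chosen with earlier results of these data known. Besides the 8 genes, those named are genes of the lists with an unadjusted p under 0.05 and 1 sign on all arrays of a contrast (up to 4 per list and contrast), well known endothelial genes, the lowest and highest genes of a family, genes with 1 sign on all 6 arrays, and the 2 nearest neighbours of each. Promoter sequences are from RefSeq. Alternatives changed the sign and number of dye-reversed arrays, centring, scale, quantile normalization, spots, dye swap, dye term, control, variance model, symbols and each array in turn. Added after seeing the data were agreeing spots combined with the sign alternatives and with each array left out, and the 1-week dye reversal averaged with either other 1-week array.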

Additional observations from a re-analysis of the deposited data

Results flagged for a closer look

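With the signs as deposited, in 4 genes of the lists every 6-week array had the opposite sign to every 1-week array, and in none did limma's difference between the times pass (adjusted p = 0.951 each over all features). The share of all named genes with this pattern was not counted. The unadjusted p-values below belong to genes picked for the pattern and are a description. Klf2, a transcription factor that flow induces, averaged a log2 ratio of 0.35 at 6 weeks and -1.34 at 1 week, a difference of 1.68 (unadjusted p = 0.00125). Rhoj, a small GTPase of endothelial cells, stood at 0.53 at 6 weeks and -0.68 at 1 week, a difference of 1.21 (unadjusted p = 0.0128). Kitl, the ligand of the receptor Kit, stood at -0.19 at 6 weeks and 0.85 at 1 week, a difference of -1.03 (unadjusted p = 0.00778), and its spots disagreed by up to 1.14. Alas2, the haem synthesis enzyme of red cells, stood at -0.54 at 6 weeks and 0.95 at 1 week, a difference of -1.48 (unadjusted p = 0.0271). None of the 8 junction, capillary and identity genes showed such a reversal between the times with these signs.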

How the results depend on the processing

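Each value already compares smoke with control within 1 array, and the 6-week dye reversal was averaged with the array it repeats. No other pairing of arrays was possible because the labels give no replicate numbers. The mean over both times kept its sign under every alternative tried for Cldn5, Tmem88, Ly6e, Car4, Tek, Pecam1 and Sox7, while Flt1 turned negative without the array against 6-week control. Cldn5, Tmem88 and Ly6e were negative on all 6 arrays and were chosen for that, so leaving out an array could not turn their sign. Their size did change: with both dye reversals turned the mean was -0.16 for Cldn5, -0.28 for Tmem88 and -0.24 for Ly6e. Leaving out each array in turn, that mean ranged from -0.93 to -0.66 for Cldn5, -1.17 to -0.99 for Tmem88, -0.74 to -0.61 for Ly6e, -0.53 to -0.37 for Car4, 0.33 to 0.44 for Tek, 0.13 to 0.35 for Pecam1, 0.29 to 0.45 for Sox7 and -0.07 to 0.18 for Flt1. Other values of the 8 genes changed sign more often. The 6-week minus 1-week difference did so under at least 1 alternative for 7 of the 8 genes, all but Car4, and for Cldn5 (-0.22) it was 0.61 with the 6-week and 0.19 with both dye reversals turned, 0.07 from the 4 unreversed arrays and 0.05 without the 6-week dye reversal. For Pecam1 (-0.07) it was 0.52 with both turned. Pecam1 averaged -0.15 at 1 week with both turned and -0.08 at 6 weeks without the array against 6-week control, where Flt1 averaged -0.09 at 6 weeks, and Car4 at 1 week ranged from -0.22 to -0.02 where it turned negative. Some values larger in size than their spread changed sign. The spread was the SD of replicates for a mean, the SE of the fit for a difference and the SD over the 6 arrays for the median of a list. These values were the 6-week mean of Sox7 from its lower spots (-0.0009) and the 6-week minus 1-week difference of Flt1 without the array against 6-week control (-0.0269, the lowest of a range to 0.4946 leaving out each array). With both dye reversals turned, they were the medians of the general endothelial genes (0.0167) and of the fibroblast markers (0.0819). The cause was not tested. The counts of features that passed, 0 in each comparison over all features, became 12 at 6 weeks, 102 at 1 week and 103 over both times in the fit of genes with agreeing spots, and 6 over both times with all 6 arrays as separate replicates. Counts with an unadjusted p under 0.05 were 437 at 6 weeks, 795 at 1 week, 803 over both times and 378 for the difference among genes with agreeing spots, where fewer genes were tested. With both dye reversals turned they were 733 at 1 week and 397 for the difference, and leaving out each array in turn gave 670 to 1055 for the difference, the highest without the array against 6-week control. Among genes with agreeing spots, the counts that passed at 6 weeks were 0 with the 6-week or both dye reversals turned, 1 from the 4 unreversed arrays and 0 to 21 leaving out each array. At 1 week they were 0 with both turned, 18 from the unreversed arrays, 29 or 30 with the 1-week dye reversal averaged with the second or the third 1-week array, and 1 (without the third 1-week array) to 84. Over both times they were 0 with the 6-week or both turned, 37 from the unreversed arrays and 0 (without the array against 6-week control) to 138. For the difference they were 1 with the 6-week dye reversal turned and 0 to 1 leaving out each array. Signal over background could not be assessed from ratios, and with so few arrays every value is imprecise.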
